A study of Mus musculus with 19 samples.

Results

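At each autosomal hotspot of the CAST/SPRT hybrid, the DMC1 readout of double-strand breaks (DSBs) was set against the H3K4me3 readout of PRDM9 binding, separately for each PRDM9 allele to which hotspots had been attributed. The hotspots were all those listed for this genotype on the 19 autosomes, 9592 of the 10088 called with the X chromosome included and of the 74327 called over all 5 genotypes of the series. The CAST allele held 3470 of them, the SPRT allele 5123, and 958 were left unassigned. A further 41 carried the mark KO, the meaning of which is not given in the sources used here. The hybrids were sons of B6 (C57BL/6J) females and males of the Algerian mouse, M. spretus (SPRET/EiJ, called SPRT). Their mothers were heterozygous for a modified Prdm9 that codes for the zinc fingers of M. musculus castaneus (CAST), and these sons inherited it. The father gave the SPRT allele, so that no unmodified B6 allele was present and every autosome had a B6 and a SPRT homolog. Whole adult testis of this genotype gave 1 DMC1 SSDS library, 2 H3K4me3 ChIP samples and 2 input samples, out of 19 samples in the series. SPRT hotspots were also followed in B6/SPRT, with the unmodified B6 allele (1 DMC1 library, 2 ChIP and 2 input samples), and in Hum/SPRT, with the B6 allele carrying a human zinc finger array (1, 3 and 3, including a further ChIP and input sample labelled as part of replicate 1), both on the same hybrid background.

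PRDM9 binds DNA through its zinc fingers and trimethylates lysine 4 of histone H3 on the nucleosomes beside the bound motif. Some of the bound sites are then cut by SPO11, and the single-stranded DNA of the resected break is coated by the recombinase DMC1, which searches for the homolog. H3K4me3 therefore reads binding, whereas DMC1 SSDS reads both how often a site is broken and how long its filament persists. In a hybrid, SNPs tell which homolog each read came from, and a hotspot whose motif has been lost from a homolog is bound and cut mainly on the other.

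For DMC1, the signal given by the hotspot calling was used, for which no statement on library depth was found. It reached 269 among these hotspots. Since hotspots were called from DMC1, sites with the mark but without a called DMC1 peak are not among them. The H3K4me3 level used here is ChIP coverage divided by input coverage in the 1 kb window around the hotspot center, without scaling for library depth. The median ChIP coverage was 203 at CAST hotspots and 147 at SPRT hotspots, and the median input coverage 29 and 28, which gives a typical counting error of 0.29 and 0.30 in the log2 level. Counting error made up 9.83% and 11.3% of the variance of that level. For the fraction of H3K4me3 from the B6 chromosome, hotspots needed at least 50 SNP-carrying reads, and their median number was 319 for CAST and 251 for SPRT over all hotspots. The number of reads behind the DMC1 fraction is unknown, so only the H3K4me3 fraction could be given an interval. Each assay has 1 column of values, so nothing below has a replicate error. Hotspots share their libraries and are not replicates, and correlations across them are given as descriptions, with their range over the autosomes.

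Hotspots with more H3K4me3 had more DMC1, but the level of the mark ordered them only in part. Spearman's rho was 0.452 over 3465 CAST hotspots and 0.415 over 5123 SPRT hotspots, and Pearson's r of the log2 values 0.428 and 0.409. On single autosomes rho ran from 0.306 on chromosome 17 to 0.567 on chromosome 8 for CAST, and from 0.305 on chromosome 5 to 0.609 on chromosome 18 for SPRT. DMC1 rose less than in proportion to the mark in the least squares fit, with slopes of 0.433 for CAST and 0.447 for SPRT, so that doubling H3K4me3 went with 1.35 and 1.36 times as much DMC1. The reduced major axis, which treats both readouts alike, gave slopes of 1.01 and 1.09, so the proportion depends on how the line is drawn. It also depends on which hotspots are listed. In B6/SPRT the least squares slope was 0.736 over all SPRT hotspots and 0.394 over those shared with CAST/SPRT, and in Hum/SPRT 0.664 and 0.355. Among the strongest 50% of hotspots by DMC1, rho was 0.241 for CAST and 0.193 for SPRT, a fall that choosing on DMC1 brings by construction, as it narrows the range of that readout.

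Across 5 groups of H3K4me3 level, of about equal size, the median DMC1 signal of CAST hotspots went from 15.5 at a median level of 3 to 41.2 at a level of 14.2. For SPRT hotspots it went from 17.3 at a level of 2.19 to 40.3 at a level of 10.5. Within the group of highest mark the middle 50% of SPRT hotspots still spanned 24.7 to 65.6. Residuals from the line of each allele had an SD of 0.90 (CAST) and 0.91 (SPRT) on the log2 scale, or 1.86-fold and 1.88-fold. The SPRT hotspots carried less mark and slightly more DMC1 than the CAST hotspots. Median H3K4me3 was 5.31 against 7.20 and median DMC1 27.6 against 25.1. The median of DMC1 over H3K4me3 was 5.77 for SPRT (quartiles 3.54 and 9.37) and 3.85 for CAST (quartiles 2.44 and 6.36), and it was larger for SPRT on 19 of 19 autosomes.

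**Figure D1:**
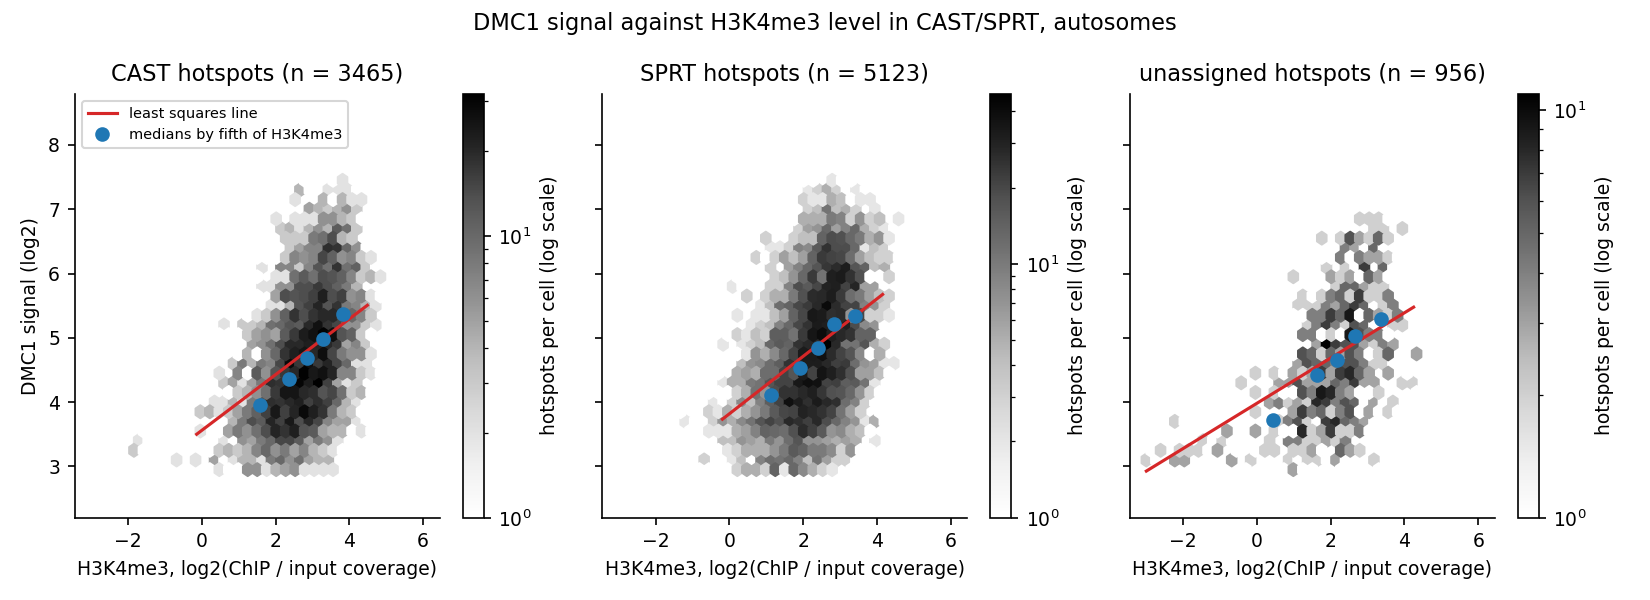
DMC1 signal (log2) against H3K4me3 level (log2 of ChIP over input coverage) at the autosomal hotspots of CAST/SPRT, with shading for the number of hotspots, the least squares line in red and medians by group of H3K4me3 in blue. The medians climb from 15.5 to 41.2 for CAST and from 17.3 to 40.3 for SPRT, within a cloud whose residual SD is 0.90 and 0.91.

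Over all autosomal hotspots with a level, 14.8% had DMC1 more than 1 log2 unit above the line of their allele and 14% more than 1 unit below it. The CAST hotspot with the largest DMC1 signal, 234, lay within the lncRNA gene Gm46832 on chromosome 3 (9028168 to 9029168, mm10). Its H3K4me3 level of 9.55 (ChIP coverage 315, input 33) lay between the quartiles of the allele, 4.67 and 10.5, and its DMC1 stood 2.90 log2 units above the line. It was balanced by both readouts, with 49.8% of DMC1 and 51.5% of H3K4me3 (95% Wilson interval 48.0 to 54.9%) from the B6 chromosome. The CAST hotspot furthest above the line, by 2.93, lay within the lncRNA gene Gm34259 on chromosome 17 (4614606 to 4615606), where 0.909% of 110 H3K4me3 reads came from B6. The third in order of residual lay 84.2 kb from Mrps30, a gene of the mitochondrial ribosome, on chromosome 13 (118470902 to 118471902), 2.86 above the line and with 19.2% of the mark on B6. The CAST hotspots with the largest excess of DMC1 thus included balanced and SPRT-sided ones.

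At the other end, a CAST hotspot within Snw1, which encodes a splicing and transcription cofactor, on chromosome 12 (87470915 to 87471915) had a DMC1 signal of 9.07 at an H3K4me3 level of 23.0 and a residual of -2.34. The nearest listed gene start was 27519 bp away, beyond both bounds of Snw1, so the start of Snw1 itself was not listed. Whether this hotspot lies at a promoter was not tested. Hotspots within 2900026A02Rik on chromosome 5 (113214056 to 113215056) and 0.801 kb from the pseudogene Gm12502 on chromosome 3 (108018569 to 108019569) had residuals of -2.29 and -2.16. All 3 carried the mark on both homologs, with 50.4%, 54.9% and 62.7% from B6. The CAST hotspot with the highest H3K4me3 level, 35.2, lay within Frmd5 on chromosome 2 (121567443 to 121568443), and its DMC1 signal of 17.6 was below the median of the allele.

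Among SPRT hotspots, the one with the largest DMC1 signal, 248, was also the one furthest above the line, by 3.06. It lay within Tmem144 on chromosome 3 (79812458 to 79813458) and had an H3K4me3 level of 5.32, next to the median of the allele, 5.31, with 94.1% of the mark and 98.6% of DMC1 from B6. Hotspots within Pxk on chromosome 14 (8113698 to 8114698) and within Trp53inp1, a target gene of p53, on chromosome 4 (11172224 to 11173224) followed, at 2.93 and 2.79 above the line. Their marks lay on opposite homologs, with 100% and 19.2% of H3K4me3 from B6. Furthest below were hotspots 16.7 kb from Vangl2, a planar cell polarity gene, on chromosome 1 (171983780 to 171984780), within Lhx4, a LIM homeobox gene, on chromosome 1 (155739563 to 155740563), and within Gnat1, which encodes the transducin of rods, on chromosome 9 (107675038 to 107676038). Their residuals were -2.67, -2.27 and -2.26, with DMC1 signals of 7.55, 8.17 and 10.2. The lowest signal of the allele was 7.52, so the order at this end also rests mainly on the mark. The SPRT hotspot with the highest H3K4me3 level, 29.9, within Rab43 on chromosome 6 (87791988 to 87792988), had DMC1 of 65.9 and a residual of 0.03.

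Which homolog carried the mark and which was broken matched far more closely than the levels did. Between the B6 fractions of DMC1 and H3K4me3, Spearman's rho was 0.885 over 2438 CAST hotspots and 0.827 over 4116 SPRT hotspots, and Pearson's r 0.914 and 0.931. Across single autosomes rho ran from 0.844 to 0.940 for CAST and from 0.762 to 0.864 for SPRT. The fractions lay within 10 percentage points of each other at 58.4% of CAST hotspots (48.6 to 65.9% on single autosomes) and at 76.8% of SPRT hotspots (71.7 to 83.5%). They were over 25 points apart at 7.22% and 3.43%. Taking a hotspot as matched when 25 to 75% of reads came from B6, and as B6-sided or SPRT-sided otherwise, both readouts put 84.9% of CAST and 91.5% of SPRT hotspots in the same class. Only 1 hotspot of each allele was B6-sided by H3K4me3 and SPRT-sided by DMC1, and 0 were the reverse.

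The disagreement that remained had a shape. DMC1 lay further from 50% than H3K4me3 at 69.5% of CAST and 70.8% of SPRT hotspots. This share has no value for no change to be set against. Near 50%, the counting error of DMC1, which is unknown, brings such cases by itself. Where the mark was 60 to 70% from B6, the CAST median of DMC1 was nearer to 50% (58.3% against 64.0%). Of 1644 CAST hotspots matched by the mark, 338 were one-sided by DMC1, or 20.6% (15.1 to 30% on single autosomes), whereas 30 of 794 went the other way (3.78%). For SPRT these were 305 of 1181 (25.8%, on single autosomes 18.5 to 40.3%) and 43 of 2935 (1.47%). The shares depend on the range taken as matched. With 10 to 90%, DMC1 was one-sided at 10.8% of H3K4me3-matched CAST hotspots and at 28.7% of those of SPRT. Where H3K4me3 was 30 to 40% from B6, the median DMC1 fraction was 20% for both alleles, and where the mark was 70 to 80% from B6, it was 79.2% for CAST and 84.4% for SPRT.

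The median difference between the fractions had opposite signs for CAST and SPRT, which have different mixtures of balanced and B6-sided hotspots. DMC1 minus H3K4me3 had a median of -4.03 percentage points at CAST hotspots, below 0 on 19 of 19 autosomes, and of 1.30 at SPRT hotspots, above 0 on 19 of 19. Among the hotspots above the upper quartile of H3K4me3 these medians were -7.76 for CAST and 1.94 for SPRT. Hotspots with like fractions of the mark differed in part. Where the mark was 50 to 60% from B6, DMC1 lay on the SPRT side of it for both alleles, with medians of 46.2% against 54.1% for CAST and 50% against 55.1% for SPRT. Where it was 60 to 70% from B6, the median of DMC1 was 58.3% against 64.0% for CAST and 64.3% against 64.1% for SPRT. Above 70% both alleles had DMC1 further towards B6 than the mark. In the bins from 40 to 80% the DMC1 median of SPRT hotspots was the more B6 one, by the values 40% against 37.2%, 50% against 46.2%, 64.3% against 58.3% and 84.4% against 79.2%, although the medians of the mark within a bin were not always the same. Over all autosomal hotspots compared, the DMC1 fraction lay outside the 95% Wilson interval of the H3K4me3 fraction at 68.9%, below it at 30.9% and above it at 38%. CAST hotspots lay below in 50.5% of cases (1230 of 2438) and above in 24.2%, and SPRT hotspots below in 19.1% and above in 47.1% (1940 of 4116). These intervals leave out the counting error of DMC1. SNP-carrying reads also outnumbered the ChIP coverage of the window 1.70-fold at the median. They may therefore not be independent fragments, or may come from a wider window than the 1 kb of the level. The side to which matched hotspots turned also differed in number between the alleles. CAST hotspots that were matched by H3K4me3 and one-sided by DMC1 were mostly SPRT-sided (221 against 117), whereas those of SPRT were mostly B6-sided (219 against 86). More of the SPRT hotspots near balance lay on the B6 side to begin with, 368 having 60 to 70% of the mark from B6 and 47 having 30 to 40%, against 337 and 117 for CAST, and how far this mixture set the counts was not tested. Shares weighted by level cover only the 2438 CAST and 4116 SPRT hotspots with both fractions. There the B6 homologs held 57.3% of the H3K4me3 and 49.9% of the DMC1 of CAST hotspots. At SPRT hotspots they held 79.4% of the H3K4me3 and 84.7% of the DMC1, without the hotspots lacking a DMC1 fraction, which were more often matched.

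**Figure D2:**
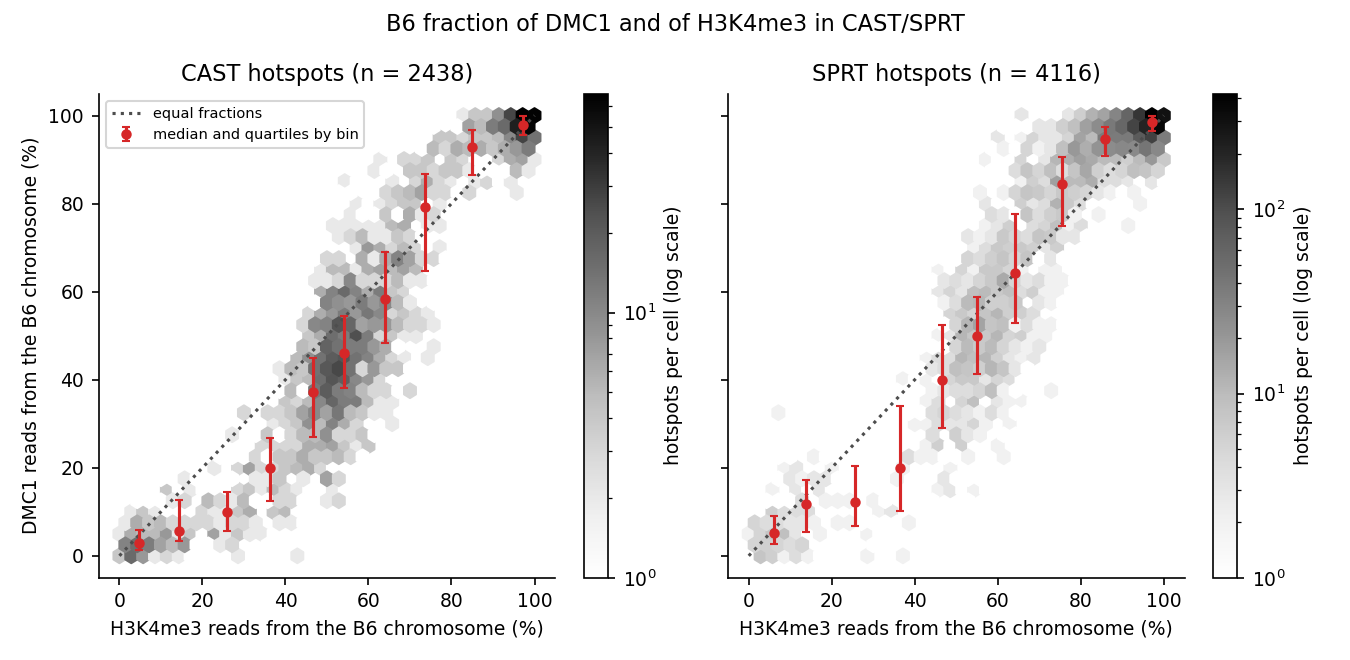
Percentage of DMC1 reads against percentage of H3K4me3 reads from the B6 chromosome at hotspots with at least 50 SNP-carrying H3K4me3 reads, with medians and quartiles of DMC1 by bins of 10 points in red and equality dotted. The medians run flatter than equality at either end and steeper in between, from 20% at 30 to 40% of the mark to 79.2% (CAST) and 84.4% (SPRT) at 70 to 80%.

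Of the 6 CAST hotspots named for the largest differences between the fractions, 5 had less DMC1 than the median of the allele, 25.1. The number of DMC1 reads behind a fraction is unknown, so choosing the largest differences may favor hotspots with few such reads, for both alleles. The largest difference at a CAST hotspot lay within Bcas3 on chromosome 11 (85673956 to 85674956), where 78.2% of 1383 H3K4me3 reads (interval 76.0 to 80.3%) and 0% of DMC1 reads came from B6. Its H3K4me3 level of 25.6 was above the upper quartile of 10.5, its DMC1 signal was 10.8, and it is the CAST hotspot that was B6-sided by the mark and SPRT-sided by DMC1. Hotspots within Dus1l, a tRNA dihydrouridine synthase gene, on chromosome 11 (120792010 to 120793010) and within Ctnna3, which encodes an alpha-catenin, on chromosome 10 (64283846 to 64284846) differed by -49.8 and -45.9 points. Of these, Ctnna3 had a DMC1 signal of 37.8, above the median. In the other direction, hotspots within Tulp4 (chromosome 17, 6190828 to 6191828), within Ccdc88a (chromosome 11, 29504138 to 29505138) and where Ppp3cc, a catalytic subunit of calcineurin, and Gm33790 overlap (chromosome 14, 70250810 to 70251810) had 46.9, 30.8 and 29.9 points more B6 in DMC1, from 116, 159 and 322 H3K4me3 reads.

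At SPRT hotspots the largest excess of B6 in DMC1, 43.1 points, lay within Cfap36, a cilia and flagella gene, on chromosome 11 (29245482 to 29246482), where 98.9% of DMC1 and 55.8% of 1466 H3K4me3 reads (interval 53.2 to 58.3%) were from B6. Its center was 1290 bp from a gene start, and the ChIP coverage of its window was 300, far below the number of SNP-carrying reads. The part of promoter H3K4me3 in its fraction was not tested. A hotspot 35.2 kb from the pseudogene Gm16372 on chromosome 12 (24456589 to 24457589) and another 18.4 kb from Ccdc39, a gene of axonemal dynein assembly, on chromosome 3 (33862247 to 33863247) followed with 42.5 and 41.4 points. All 3 had DMC1 signals above the median of the allele, at 48.3, 47.1 and 145. The window near Gm16372 had an input coverage of 59, against a median of 28 and an upper quartile of 31 for SPRT hotspots. Whether this bears on its fractions was not tested. The largest deficits were within Magi3 (chromosome 3, 104170153 to 104171153, -70.7 points), within Ermard (chromosome 17, 15062885 to 15063885, -46.5) and 2.01 kb from Tead1, a gene of the Hippo pathway (chromosome 7, 112908296 to 112909296, -43.1), with DMC1 signals of 7.77, 29.4 and 10.1. The fraction of the mark at Magi3 rests on 81 reads (79.0%, interval 68.9 to 86.5%).

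Measured from the line of the allele, one-sided and matched hotspots differed in DMC1 for SPRT and hardly for CAST, although for CAST this depended on the measure. Classed by the H3K4me3 fraction, one-sided SPRT hotspots had a median residual of 0.12 and matched ones of -0.33, a difference of 0.44 log2 or 1.36-fold that was positive on 19 of 19 autosomes (0.16 to 0.93). Of 1766 matched SPRT hotspots, 22.5% lay more than 1 unit below the line and 9.40% more than 1 unit above, against 14% and 14.8% of all hotspots. At CAST hotspots the difference was -0.00057 and positive on 8 of 19 autosomes. Dividing DMC1 by H3K4me3 in place of taking the residual gave 0.58 for SPRT and 0.37 for CAST. Matched CAST hotspots had more mark than one-sided ones (8.48 against 5.20), and this ratio falls as the mark rises, from 6.01 to 2.71 across the groups of H3K4me3 level.

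A split by side, added after seeing the data, gave residuals that differed between the sides. The median residual of SPRT-sided CAST hotspots minus that of matched ones was 0.34 (above 0 on 16 of 19 autosomes), and that of B6-sided minus matched ones -0.15 (below 0 on 16 of 19). DMC1 itself had a median of 27.6 at SPRT-sided and 27.7 at matched CAST hotspots, the former having less mark (4.88 against 8.48). SPRT-sided CAST hotspots lay more than 1 unit above the line in 24.9% of cases (88 of 354) and B6-sided ones in 8.02% (52 of 648). With the plain log2 ratio, B6-sided CAST hotspots instead exceeded matched ones, by 0.18. At SPRT hotspots the residuals of both sides exceeded those of the matched class, the B6 side by 0.46 (19 of 19 autosomes) and the SPRT side by 0.27 (15 of 19). Only the B6 side also had the higher DMC1 signal, with a median of 32.7 against 24.1 in the matched class and 21.4 on the SPRT side. Within the 5 groups of H3K4me3 level, the residuals of the B6 side of SPRT hotspots stood above those of the matched class in each, by 0.18 to 0.81. For CAST these differences from the lowest group to the highest were 0.01, 0.19, -0.12, -0.31 and -0.74, the last from 38 B6-sided hotspots. The SPRT side stood above the matched class in every group but the highest, for both alleles. In the highest group it lay below, by -0.35 from 2 SPRT-sided SPRT hotspots and by -0.04 from 15 SPRT-sided CAST hotspots.

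**Figure D3:**
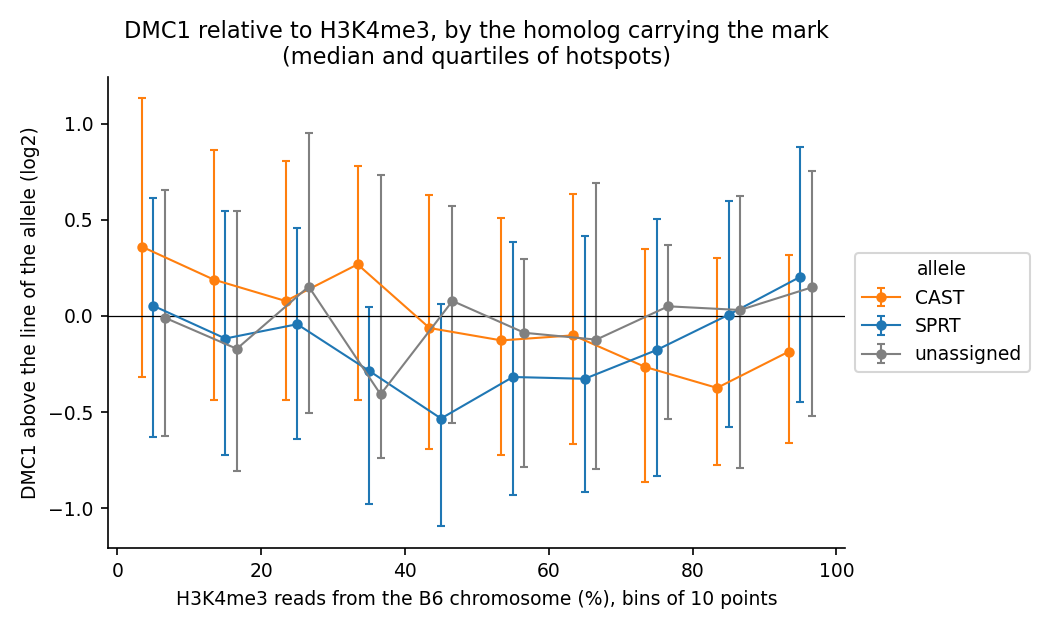
Residual of DMC1 from the line of the allele (log2) by the percentage of H3K4me3 reads from B6, as medians with quartiles over hotspots in bins of 10 points that hold at least 20 hotspots. SPRT medians dip to -0.53 at 40 to 50% and reach 0.20 above 90%, whereas CAST medians go from 0.36 below 10% to -0.19 above 90%.

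Levels were then assigned to each homolog by multiplying a level by its fraction. Per homolog, rho between H3K4me3 and DMC1 was 0.595 on B6 and 0.745 on SPRT at CAST hotspots, and 0.556 and 0.758 at SPRT hotspots. These exceed the values for whole hotspots, but both levels of a homolog carry its fraction as a factor, and the fractions themselves are correlated. At like H3K4me3 on a homolog, DMC1 on that homolog was higher where it carried over 90% of the mark than where both homologs carried 40 to 60%. In 4 groups by mark on the B6 homolog, chosen after seeing the data, the DMC1 of that homolog at SPRT hotspots was 19.1, 27.4, 38.5 and 49.5 with the mark on B6 alone, and 8.18, 10.3, 14.5 and 22.2 with it on both. The corresponding folds were 2.34, 2.65, 2.65 and 2.23. At CAST hotspots they were 2.08, 1.71, 1.59 and 1.32, falling with the level of the mark. On the SPRT homolog the folds were 1.18 to 2.09 for CAST and 1.45 to 2.17 for SPRT hotspots, from groups with 18 to 33 one-sided hotspots each. A line through whole hotspots has a fold of its own for the mark on a single homolog, which depends on how the line is drawn. With the least squares slopes it was 1.48 for CAST and 1.47 for SPRT, and with the reduced major axis 0.991 and 0.937. On the B6 homolog all 4 SPRT folds exceeded both values, and those of CAST exceeded the second and lay on either side of the first. The DMC1 of whole hotspots differed less or the other way. In the same groups by mark on B6, its folds were 1.06, 1.16, 1.41 and 1.22 at SPRT hotspots and 0.88, 0.75, 0.68 and 0.60 at CAST hotspots. In the groups by mark on the SPRT homolog they were 0.76 to 1.11 at SPRT hotspots and 0.73 to 1.21 at CAST hotspots.

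**Figure D4:**
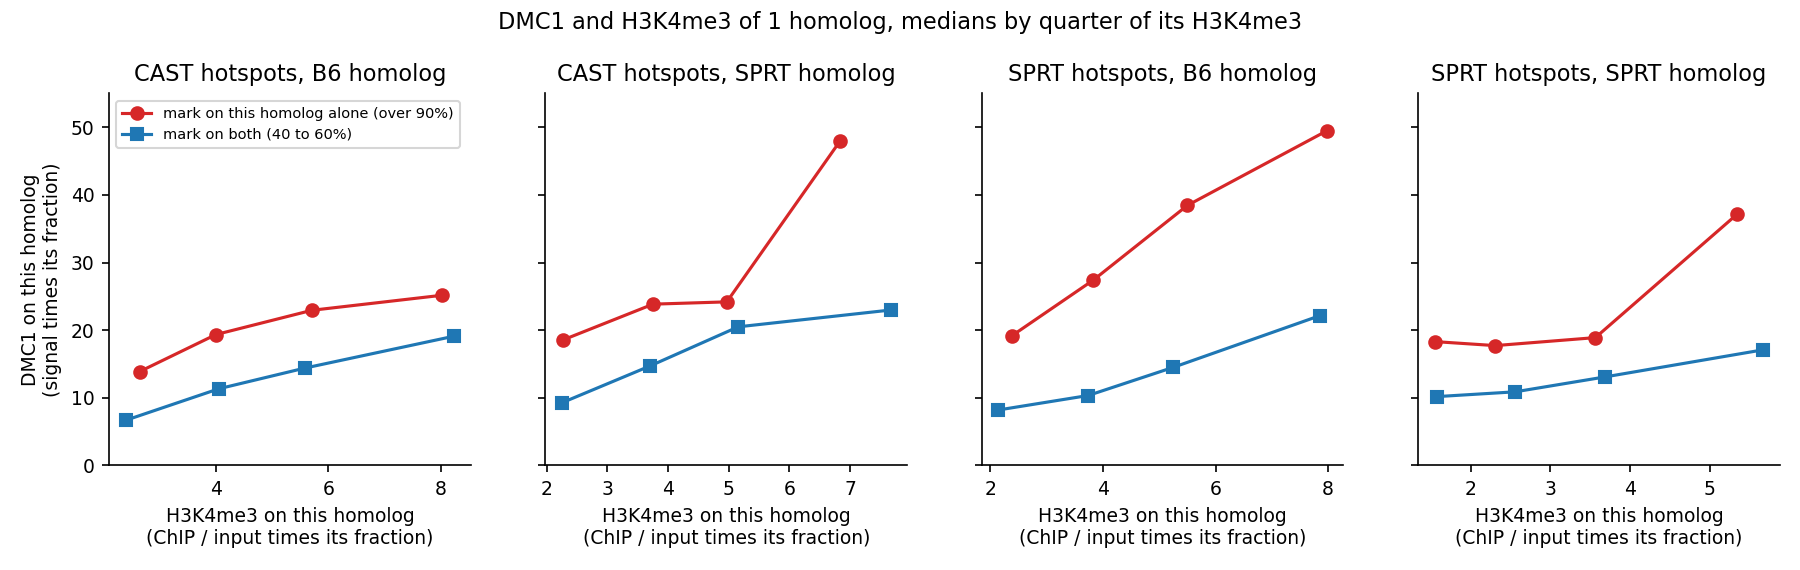
Median DMC1 of a homolog (signal times its fraction) against median H3K4me3 of the same homolog (ChIP over input coverage times its fraction), in 4 groups by that H3K4me3, where the homolog carried over 90% of the mark (red) or 40 to 60% (blue). Red lies above blue in each panel, most widely for the B6 homolog at SPRT hotspots (49.5 against 22.2 in the highest group).

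A DMC1 fraction was missing at 921 SPRT hotspots, and they were not a random part of the allele. By H3K4me3, 69.3% of those with enough reads were matched, against 28.7% of the hotspots with a DMC1 fraction, and their median residual was -0.24 against -0.01. For CAST these shares were 78.2% and 67.4%, over 952 and 2438 hotspots, and the residuals differed in the other direction, with medians of 0.01 without a DMC1 fraction and -0.10 with one. With only the hotspots that had a DMC1 fraction, the residual of one-sided minus matched hotspots was 0.50 for SPRT and 0.01 for CAST.

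The departures of SPRT hotspots from the H3K4me3 line, named from the CAST/SPRT libraries alone, were found again in libraries of other hybrids. Of the 5123 SPRT hotspots, 5025 had a SPRT hotspot within 500 bp in B6/SPRT and 5028 in Hum/SPRT. This share is no result, since hotspots were attributed to alleles by comparing mice that carry different ones. Residuals in CAST/SPRT and B6/SPRT had a rho of 0.833, and those in CAST/SPRT and Hum/SPRT of 0.881, each from the line of its own table. Between genotypes, DMC1 signals at these hotspots had a rho of 0.909 and 0.921 and H3K4me3 levels of 0.856 and 0.864, far above the 0.415 between assays within CAST/SPRT. Of the 253 shared hotspots with residuals in the upper 5% of CAST/SPRT, 252 lay above the line in B6/SPRT, as did 256 of 256 in Hum/SPRT. The shared hotspots as a whole lay above the line there in 77.1% and 76.0% of cases, the lines there being fitted to 9246 and 9243 SPRT hotspots. Of the lower 5%, 225 of 253 and 231 of 249 lay below the line. The lines of the whole tables were also steeper than lines fitted to the shared hotspots alone, with slopes of 0.736 against 0.394 in B6/SPRT and 0.664 against 0.355 in Hum/SPRT. Residuals were therefore taken again from lines fitted in both genotypes to the shared hotspots, a choice made after seeing the data. From these lines rho of the residuals was 0.869 and 0.891. Of the 252 lowest hotspots in CAST/SPRT, 248 and 249 lay below the line in the other genotype, against 49.4% and 50.2% of all shared hotspots. The upper 5% had median residuals of 1.34 in B6/SPRT and 1.58 in Hum/SPRT, and the lower 5% of -1.14 and -1.34. Their sizes are not compared with CAST/SPRT, because the residuals there chose these hotspots and so must be the more extreme ones on the whole.

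The 6 SPRT hotspots named for their residuals kept their side of these lines in both genotypes, with sizes subject to the same choice. That within Tmem144 lay 3.06 above the line in CAST/SPRT, 2.29 in B6/SPRT and 2.46 in Hum/SPRT, and the one within Gnat1 had residuals of -2.26, -1.74 and -2.18. That near Vangl2 had -2.67 in CAST/SPRT, -1.44 in B6/SPRT and -1.25 in Hum/SPRT. Differences between the B6 fractions recurred less closely, with a rho of 0.569 over 3863 hotspots in B6/SPRT and 0.597 over 3854 in Hum/SPRT. Of the hotspots whose fractions were over 25 points apart in CAST/SPRT, 112 of 126 (88.9%) and 121 of 130 (93.1%) had a difference of the same sign, against 73.6% and 73.3% of all hotspots compared. In each genotype 52 of them (41.3% and 40%) were again over 25 points apart, against 3.52% and 3.06% of all. Most differences were positive over all hotspots (63.9% in CAST/SPRT among those compared with B6/SPRT, 77.7% in B6/SPRT), whereas 79 of the 126 wide ones were negative in CAST/SPRT, and 73 of these 79 were negative in B6/SPRT as well. At Cfap36, DMC1 was 98.9%, 99.3% and 98.2% from B6 in CAST/SPRT, B6/SPRT and Hum/SPRT, and the mark 55.8%, 53.4% and 56.0%. At Magi3, which had the largest deficit, the difference was smaller in the other genotypes. DMC1 there was 8.33%, 18.6% and 38.7% from B6 in the same order, and the mark 79.0%, 62.8% and 61.6%. The median of DMC1 minus H3K4me3 was 1.37 points at the hotspots compared with B6/SPRT and 5.10 at the same hotspots in that genotype, and 1.35 against 4.12 for Hum/SPRT.

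**Figure D5:**
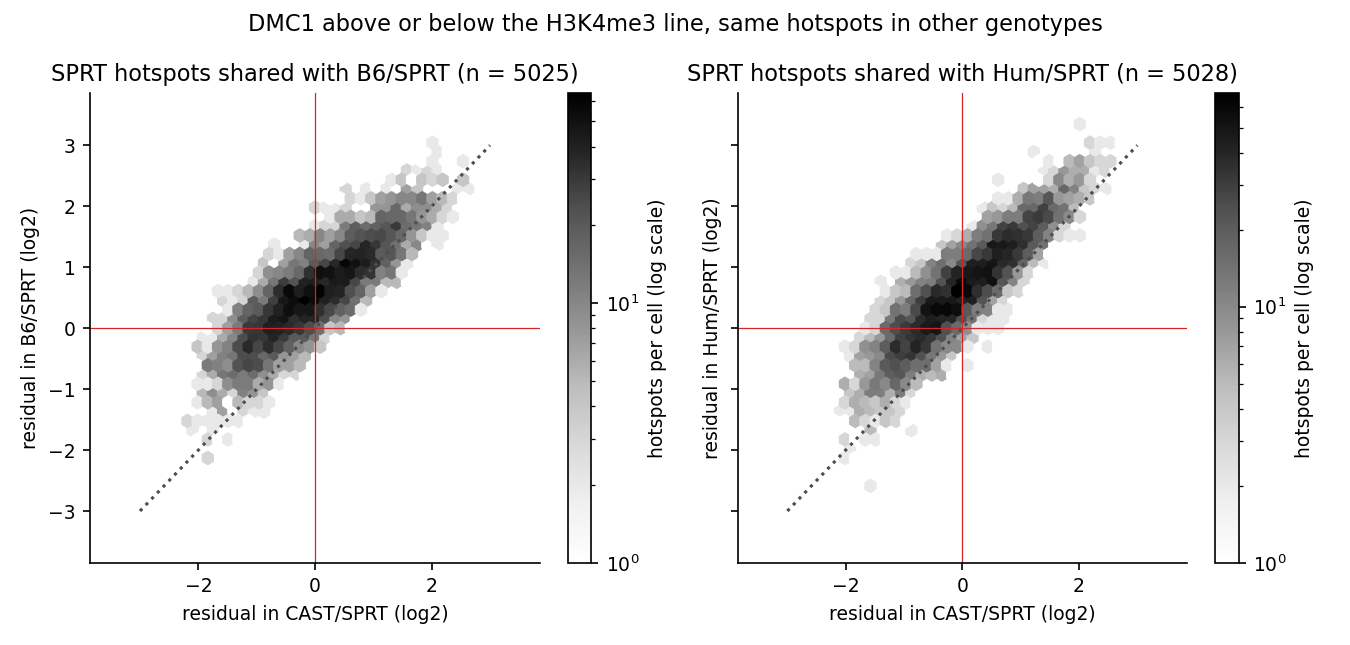
Residual of DMC1 from the H3K4me3 line (log2) of SPRT hotspots in CAST/SPRT against the residual of the same hotspots in B6/SPRT and Hum/SPRT, with zero in red and equality dotted. The points rise together, with rho 0.833 and 0.881, and most lie above zero in the other genotypes (77.1% and 76.0%), where each line is that of the whole table.

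Hotspots without an allele also had more DMC1 where they had more mark. Over 956 unassigned hotspots rho between DMC1 and H3K4me3 was 0.493 and the slope 0.352, and over 539 the B6 fractions had a rho of 0.862, with 78.5% within 10 points (59.1 to 89.3% on single autosomes). They were mostly SPRT-sided by the mark (307 of 539), and one-sided minus matched was 0.11, positive on 10 of 19 autosomes. The unassigned hotspot furthest above the line, with 7.98 times the DMC1 of the line, lay within Acap3 on chromosome 4 (155897945 to 155898945). KO hotspots had little mark, with a median H3K4me3 level of 0.31 against 5.79 over all hotspots, a median DMC1 signal of 13.2 and a rho of 0.0992 over 38 hotspots, and 1 of 41 had 50 SNP-carrying reads. The 2 KO hotspots at the extremes of residual, 13.2 kb from Gm9637 on chromosome 14 (19417832 to 19418832) and 19.6 kb from Mir101c on chromosome 9 (3018613 to 3019613), had input coverages of 2192 and 297, far above the median of 17 for these hotspots.

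The unassigned hotspot furthest below its line, with a residual of -2.74, sat on a gene start. Its center on chromosome 6 (134248290 to 134249290) was 20 bp from the start of the lncRNA gene Gm17089, inside the bounds of Etv6, which encodes an ETS transcription factor. It had an H3K4me3 level of 28.1, against a median of 4.52 for unassigned hotspots, a DMC1 signal of 7.62 and 51.5% of the mark but 8.33% of DMC1 from B6. That signal was near the lowest of the unassigned hotspots, 7.53. Active promoters carry H3K4me3 placed by other methyltransferases. Whether this gene start is active was not measured. The sequence around it is shown to let the base composition be seen. It is taken from RefSeq (GRCm38.p6, chr6:134248761-134249060, minus strand, 250 bases before to 50 after the start) with each CG dinucleotide in capitals.
Gm17089 promoter: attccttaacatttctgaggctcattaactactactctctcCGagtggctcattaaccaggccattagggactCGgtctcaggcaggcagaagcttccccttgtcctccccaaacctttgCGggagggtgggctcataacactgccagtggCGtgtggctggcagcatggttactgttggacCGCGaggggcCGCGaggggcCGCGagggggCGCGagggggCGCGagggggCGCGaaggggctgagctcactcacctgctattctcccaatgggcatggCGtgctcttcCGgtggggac
It holds 18 CG dinucleotides and 62% G and C, against medians of 7 and 52.7% over 32851 promoters, of which 70.3% hold fewer CG and 75.3% less G and C. Of the 18, 12 lie in a single tandem repeat of 54 bases. Over all alleles, 43 of 159 hotspots within 1 kb of a gene start lay more than 1 log2 unit below the line, or 27.0% against 14% of all hotspots. Their median residual was -0.45 for 61 CAST, -0.07 for 79 SPRT and -1.06 for 19 unassigned hotspots. The part of promoter H3K4me3 in this was not tested. The B6 fractions of hotspots near gene starts still followed each other, with a rho of 0.907 over 127 hotspots.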

How the data were processed

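The members and lists were chosen with earlier results of these data known. The authors mapped reads to mm10 with BWA, per the submitters' processing notes, called hotspots from DMC1 SSDS without a prior list, attributed alleles and assigned reads to homologs by SNPs. Alleles were attributed by the authors through comparison with mice carrying other Prdm9 alleles, with the details not given in the sources used here. For DMC1 the authors deposited a signal and a B6 fraction, the latter without a number of reads. For H3K4me3 the authors deposited counts of coverage in ChIP and in input, a B6 fraction with its number of SNP-carrying reads, and an enrichment ratio of unstated formula, used as an alternative only. A table was taken for its genotype from the alleles it names and its number of hotspots. It is not stated how the H3K4me3 samples of a genotype were combined, and each column was treated as 1 pool of them. A further 15 columns of values (p-values, marks for sharing and unused B6 fractions) were left out.

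Hotspots with a ChIP coverage of 0 (10 of 9592) have no log level. Each allele had its own least squares line of log2 DMC1 on log2 H3K4me3, and no test was made. Intervals of B6 fractions are 95% Wilson intervals over reads and cover counting error only. Values on single autosomes describe spread within the libraries, not between mice. Hotspots were named by rule. For CAST and SPRT these were the 3 largest and 3 smallest residuals at an input coverage of at least 10, the 3 largest and 3 smallest differences in B6 fraction at 50 or more reads, the largest DMC1 signal and the largest H3K4me3 level. For other allele values with at least 20 hotspots, they were the largest and smallest residual. The strata of mark per homolog and the split by side were chosen after seeing the data. Shared hotspots had centers within 500 bp. Gene bounds are from RefSeq GRCm38.p6, the build called mm10, without exons. Gene starts came from a promoter table that is not complete and was not used for chromosome 18 (380 hotspots). Computations were tested on simulated data and used scipy 1.17.1, matplotlib 3.10.9, numpy 2.4.6 and pandas 2.3.3 under Python 3.11.15. Alternatives covered the H3K4me3 level, coverage and read minimums, the matched range, gene starts, the X chromosome and the distance between centers.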

Additional observations from a re-analysis of the deposited data

How the results depend on the processing

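Of 154 recomputed values for CAST and SPRT hotspots, 130 moved by less than the SD over the autosomes (or, for shares, stayed within a 95% Wilson interval that takes hotspots as independent, or within 1.5 times for counts), 24 moved by more, and 0 changed sign from beyond that SD. Shares, counts and contrasts smaller than that SD could not enter the last number. Such contrasts were the one-sided, B6-side and SPRT-side ones of CAST and the SPRT-side one of SPRT hotspots. Among the 50% of hotspots strongest in DMC1, rho of the levels was 0.241 for CAST and 0.193 for SPRT and the slope 0.196 and 0.155, and at SPRT hotspots 81.5% of B6 fractions lay within 10 points and 28.6% of H3K4me3-matched hotspots were one-sided by DMC1. The fall of rho and slope follows by construction from choosing on DMC1, and shows no dependence on processing. The reduced major axis gave slopes of 1.01 and 1.09. Among the hotspots above the upper quartile of H3K4me3, rho of the fractions was 0.691 for CAST and 0.897 for SPRT, the share within 10 points 52.3% and 72.6%, the median difference -7.76 and 1.94 points, and the share of matched hotspots one-sided by DMC1 13.4% and 23.0%. That share was 16.3% for CAST with a matched range of 20 to 80%, and 10.8% for CAST and 28.7% for SPRT with 10 to 90%. With the log2 ratio in place of the residual, one-sided minus matched CAST hotspots was 0.37, the B6 side minus matched 0.18, which turned its sign, and the SPRT side minus matched 0.74, the last being 0.71 for SPRT hotspots. With lines fitted to the shared hotspots alone, rho of the residuals with B6/SPRT was 0.869. For the other moved values the cause was not tested, beyond the fall of the ratio with H3K4me3 given above. ChIP coverage without division by input, the split by side, the lines of shared hotspots and the restriction to hotspots with a DMC1 fraction were chosen after seeing the data. No paired analysis was possible because each assay has 1 column per genotype and no test was made. For the same reason no replicate could be left out. Input coverages near 28 limit the H3K4me3 level of single hotspots, and the unknown depth of DMC1 limits its fraction.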

Other observations

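On the X chromosome, which these males have from the B6 mother alone, the median DMC1 lay above the autosomal line for both alleles. The X is present in 1 copy, and the H3K4me3 level is divided by input whereas the DMC1 signal was used as given. Levels on the X and on the autosomes are therefore not on a like scale. Measured from the autosomal line, the median residual was 0.49 at 191 CAST hotspots and 0.40 at 279 SPRT hotspots, or 1.40-fold and 1.32-fold, with 61.3% and 59.5% of hotspots above the line. That line was fitted to all autosomal hotspots of the allele, of which the B6-sided ones had median residuals of -0.24 (CAST) and 0.13 (SPRT). The cause was not tested. DMC1 also followed the mark more closely there, with a rho of 0.621 and 0.683. The X serves as a check of the homolog assignment, since every read should be from B6. The lowest DMC1 fraction from B6 was 90% at 182 CAST hotspots and 94.7% at 272 SPRT hotspots, and the lowest H3K4me3 fraction 91.6% at 173 and 97.8% at 244, with medians of 100%.

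Among the autosomes, chromosome 11 had the lowest median residual for both alleles, -0.35 for CAST and -0.33 for SPRT. The highest were on chromosome 4 for CAST, 0.23, and on chromosome 10 for SPRT, 0.20. The alleles have different hotspots but share the libraries, and the cause was not tested.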
